A study of Mus musculus with 8 samples.

Results

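Genes that innate lymphoid cells use, namely the factors Eomes, Rora and Nfil3, the receptor and adaptor genes Il1rl1 and Fcer1g and the effector Gzma, were followed through a thymocyte line that lost TCF-1 and a fibroblast line that gained it. They were chosen by name, 6 of the 30731 genes listed in the count tables of both lines, and all 6 are listed in all 8 libraries. The study asked how TCF-1 reorganises the three-dimensional genome of developing T cells, and its RNA-seq has 4 groups of 2 libraries. The TCF-1 knockout Scid.adh cells (genotype Tcf7-/-) were set against Scid.adh cells of wild-type genotype that carried an empty vector. The 3T3 fibroblasts with TCF-1 induced were set against normal, untreated 3T3 fibroblasts of wild-type genotype. Scid.adh is a mouse T lymphoma line, labelled as a model of the DN3 stage, at which thymocytes that lack CD4 and CD8 rearrange the T cell receptor beta locus. NIH-3T3 is an immortal mouse embryonic fibroblast line. The labels do not say whether the knockout is 1 clone or whether a group's pair of libraries came from separate cultures. P-values therefore reflect the spread between libraries alone, which could be technical. Per the file headers, doxycycline was in the names of the induced libraries alone, so the drug and TCF-1 cannot be told apart in 3T3, and Cas9 was in those of all 3T3 libraries.

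TCF-1, the product of Tcf7, is a DNA-binding factor with an HMG box that helps to start the T lineage and is also needed by precursors of innate lymphoid cells. Innate lymphoid cells, natural killer (NK) cells among them, come from lymphoid progenitors but carry no rearranged antigen receptor. NFIL3, also called E4BP4, acts early in that lineage, EOMES drives NK maturation and RORα is required for the group that answers interleukin 33. That group senses interleukin 33 through ST2, the product of Il1rl1. FcRγ, the product of Fcer1g, passes on signals from Fc receptors and some NK receptors, and granzyme A is a protease of cytotoxic granules.

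The members sit in pairs on chromosomes 1, 9 and 13 (GRCm38, GENCODE M21). Eomes spans chr9:118478212-118486132 and Rora chr9:68653786-69388246, both on the plus strand, and Nfil3 spans chr13:52967209-52981073 on the minus strand. Il1rl1 spans chr1:40429570-40465415 on the plus strand, Fcer1g chr1:171229572-171234365 on the minus strand and Gzma chr13:113093825-113100981 on the minus strand. All 6 are protein-coding, and the counts are over exons of the whole gene, so isoforms, such as the several of Rora and the soluble form of ST2, were not separated.

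The 250 bases before the RefSeq start of the 4 members that differed in Scid.adh are shown, since 3 of them moved one way and 1 the other (RefSeq, GRCm38.p6). They lie at chr13:113100982-113101231 (minus strand) for Gzma, chr9:118477939-118478188 (plus strand) for Eomes, chr9:68653536-68653785 (plus strand) for Rora and chr1:171234350-171234599 (minus strand) for Fcer1g. Each reads 5′ to 3′ on the strand of its gene and ends 1 base before the start. Capitals mark TATAA, the core of a TATA box.
Gzma: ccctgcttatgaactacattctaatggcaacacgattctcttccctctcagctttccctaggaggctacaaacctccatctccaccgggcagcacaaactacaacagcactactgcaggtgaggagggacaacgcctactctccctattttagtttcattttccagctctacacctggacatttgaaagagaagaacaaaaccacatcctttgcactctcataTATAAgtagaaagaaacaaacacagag
Eomes: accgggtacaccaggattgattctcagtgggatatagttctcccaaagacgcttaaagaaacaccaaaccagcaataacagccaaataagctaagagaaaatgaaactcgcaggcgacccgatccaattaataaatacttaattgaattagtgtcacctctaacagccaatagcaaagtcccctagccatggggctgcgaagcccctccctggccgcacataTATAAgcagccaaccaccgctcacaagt
Rora: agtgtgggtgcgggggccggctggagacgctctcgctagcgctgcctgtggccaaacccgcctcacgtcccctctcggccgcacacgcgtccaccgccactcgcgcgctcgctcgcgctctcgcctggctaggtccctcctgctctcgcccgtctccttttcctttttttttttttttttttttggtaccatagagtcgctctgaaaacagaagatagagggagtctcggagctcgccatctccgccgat
Fcer1g: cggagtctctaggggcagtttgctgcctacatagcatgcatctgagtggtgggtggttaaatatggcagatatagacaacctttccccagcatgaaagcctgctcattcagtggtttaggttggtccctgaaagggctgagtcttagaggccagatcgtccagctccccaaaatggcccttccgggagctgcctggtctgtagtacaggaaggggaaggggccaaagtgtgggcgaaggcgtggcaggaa
TATAA lay 27 to 23 bases before the start of Gzma and 28 to 24 bases before that of Eomes, and was not in the last 50 bases of the other members' windows. Among all 32851 such RefSeq windows, 4.93% hold TATAA on the strand of the gene within those 50 bases; this motif was picked after the sequences had been read. CTTTGA or CTTTGT, the core letters that TCF-1 and related factors bind, was searched on both strands. It was in 0 of the 7 windows of the 6 members (Il1rl1 has a pair of starts) and in 27.6% of all windows, which says only that these letters are not in these windows. The windows differed in base composition, from 37.6% and 46.4% GC at the starts of Il1rl1, through 44.8% for Gzma, 46.4% for Eomes, 54.8% for Fcer1g and 61.2% for Rora, to 81.6% for Nfil3, against a median of 52.4% over all windows. CpG pairs numbered 43 before Nfil3 and 26 before Rora, against a median of 6.

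Counts assigned to genes totalled 7740198 and 8217933 in the knockout libraries and 10392402 and 9847239 in the empty-vector libraries, and 13850213 to 16857868 in the induced and 16174002 to 17523677 in the normal 3T3 libraries. Levels are CPM, counts divided by library size and scaled by the trimmed mean of M values (TMM), and no molecular identifiers are named, so counting intervals cover counting error only. Tcf7 was at 646 and 625 CPM in knockout cells, against 1318 and 1325 CPM in empty-vector cells. It was at 946 and 972 CPM in induced 3T3, against 14.5 and 14.7 CPM in normal 3T3. The knockout thus kept Tcf7 transcripts (log2 fold change -1.06, SE 0.06, adjusted p = 5.06e-08), and the place of the edit is not given in the labels. Of 12 DN3 markers, 10 could be tested in Scid.adh and 8 were lower in the knockout, beside 15.9% of all tested genes. Among tested genes at a mean of 100 CPM or more, where all 8 but Ptcra lie, 33.1% were lower. The 12 markers summed to 4214 to 4452 CPM in knockout and 6371 to 6453 CPM in empty-vector cells. Rag1 and Cd3e were no longer called with total counts alone, and Cd3e not by DESeq2. Rag2 and Cd7 were near 0 in all Scid.adh libraries. All 12 fibroblast markers were expressed at a testable level in 3T3. In these bulk samples, fewer cells of a type and less RNA per cell cannot be told apart. Throughout, genes were tested across the whole table with edgeR's quasi-likelihood test and Benjamini-Hochberg adjustment. A gene was called where its adjusted p was below 0.05, and fold changes are knockout over empty vector, or induced over normal.

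Eomes had the largest positive log2 fold change of the 5 members tested in Scid.adh. This T-box factor, which drives NK maturation and CD8 memory, was at 20.4 and 17.1 CPM in knockout libraries, against 8.56 and 8.65 CPM in empty-vector libraries. Both knockout libraries lay above both empty-vector libraries. Its mean was 18.8 ± 2.36 CPM in knockout and 8.61 ± 0.06 CPM in empty-vector cells (SD, n = 2 each), a log2 fold change of 1.12 (SE 0.18, 2.18-fold, adjusted p = 0.000551 by edgeR). This change was larger than that of 89.0% of tested genes. In 3T3, Eomes was at 3.06 and 1.59 CPM in induced libraries and 2.31 and 2.76 CPM in normal libraries. The normal libraries lay between the induced ones, and no difference was detectable (log2 fold change -0.09, SE 0.25, adjusted p = 0.831 by edgeR).

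Rora, an orphan nuclear receptor required for group 2 innate lymphoid cells and a part of the circadian clock, also rose in knockout cells. It was at 23.0 and 30.0 CPM in knockout libraries, against 19.1 and 13.4 CPM in empty-vector libraries. The groups did not overlap, but the libraries within each lay well apart (means 26.5 ± 4.98 and 16.3 ± 4.02 CPM, SD, n = 2 each). The log2 fold change was 0.70 (SE 0.18, 1.62-fold, adjusted p = 0.0118 by edgeR), and without empty-vector replicate 2 it was 0.46 and no longer called (adjusted p = 0.0691 by edgeR). In 3T3, Rora was at higher CPM, although the lines have different gene tables and CPM were scaled within each line. There it fell on induction, to 51.4 and 57.7 CPM in induced libraries, against 98.7 and 99.8 CPM in normal libraries (log2 fold change -0.87, SE 0.06, 1.83-fold lower, adjusted p = 1.11e-17 by edgeR). Its exons overlap those of Gm15511 on the opposite strand over 82 bases, and those of Eomes overlap Gm33460 over 118 bases. Whether reads were counted by strand is not given in the sources used here. These partners had at most 29 counts in any library.

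Nfil3, a leucine-zipper repressor that acts at the root of innate lymphoid development, did not pass the test in Scid.adh. It was at 15.2 and 9.73 CPM in knockout libraries and 13.0 and 13.3 CPM in empty-vector libraries. The knockout libraries lay on either side of the empty-vector ones, the widest relative spread within a Scid.adh group among the tested members. The log2 fold change was -0.08 (SE 0.21, adjusted p = 0.798 by edgeR), and its sign turned to 0.21 without knockout replicate 2. In 3T3, Nfil3 rose on induction, to 129 and 122 CPM in induced libraries, against 88.9 and 86.7 CPM in normal libraries. Its log2 fold change was 0.52 (SE 0.05, 1.43-fold, adjusted p = 1.90e-12 by edgeR), with no overlap between groups.

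Il1rl1 was close to absent from Scid.adh and was a well-expressed gene of 3T3. Scid.adh libraries held 7 and 2 counts in knockout and 2 and 1 counts in empty-vector cells, too few to test. Summed over each group and divided by total counts, without TMM scaling, 9 against 3 counts gave a ratio of 3.81. Its 95% exact counting interval was 0.950 to 21.9. In 3T3, Il1rl1 fell to 194 and 190.5 CPM in induced libraries, against 535 and 538 CPM in normal libraries. This was the change furthest from 0 among the members tested in 3T3 (log2 fold change -1.48, SE 0.04, 2.79-fold lower, adjusted p = 2.18e-33 by edgeR), larger than that of 97.8% of tested genes.

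Fcer1g was the 1 member that fell in knockout Scid.adh cells. It held 11 and 12 counts in knockout libraries, against 66 and 69 counts in empty-vector libraries. In CPM this was 1.34 and 1.42 in knockout, against 6.65 and 7.37 with the empty vector. The groups lay far apart, and libraries within each differed little, with a log2 fold change of -2.33 (SE 0.31, 5.03-fold lower, adjusted p = 0.000195 by edgeR). The change was larger than that of 97.4% of tested genes. In 3T3 it held 1 and 3 counts in induced libraries and 0 in both normal libraries, where a count of 0 allows up to 0.0890 CPM, so no fold is given.

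Gzma was the most abundant member in Scid.adh. This trypsin-like protease was at 565 and 533 CPM in knockout libraries, against 381 and 391 CPM in empty-vector libraries. All knockout values were above all empty-vector values, by 1.42-fold (log2 fold change 0.51, SE 0.06, adjusted p = 7.37e-05 by edgeR). In 3T3 the libraries held a single Gzma count in all, from induced replicate 1.

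**Figure D1:**
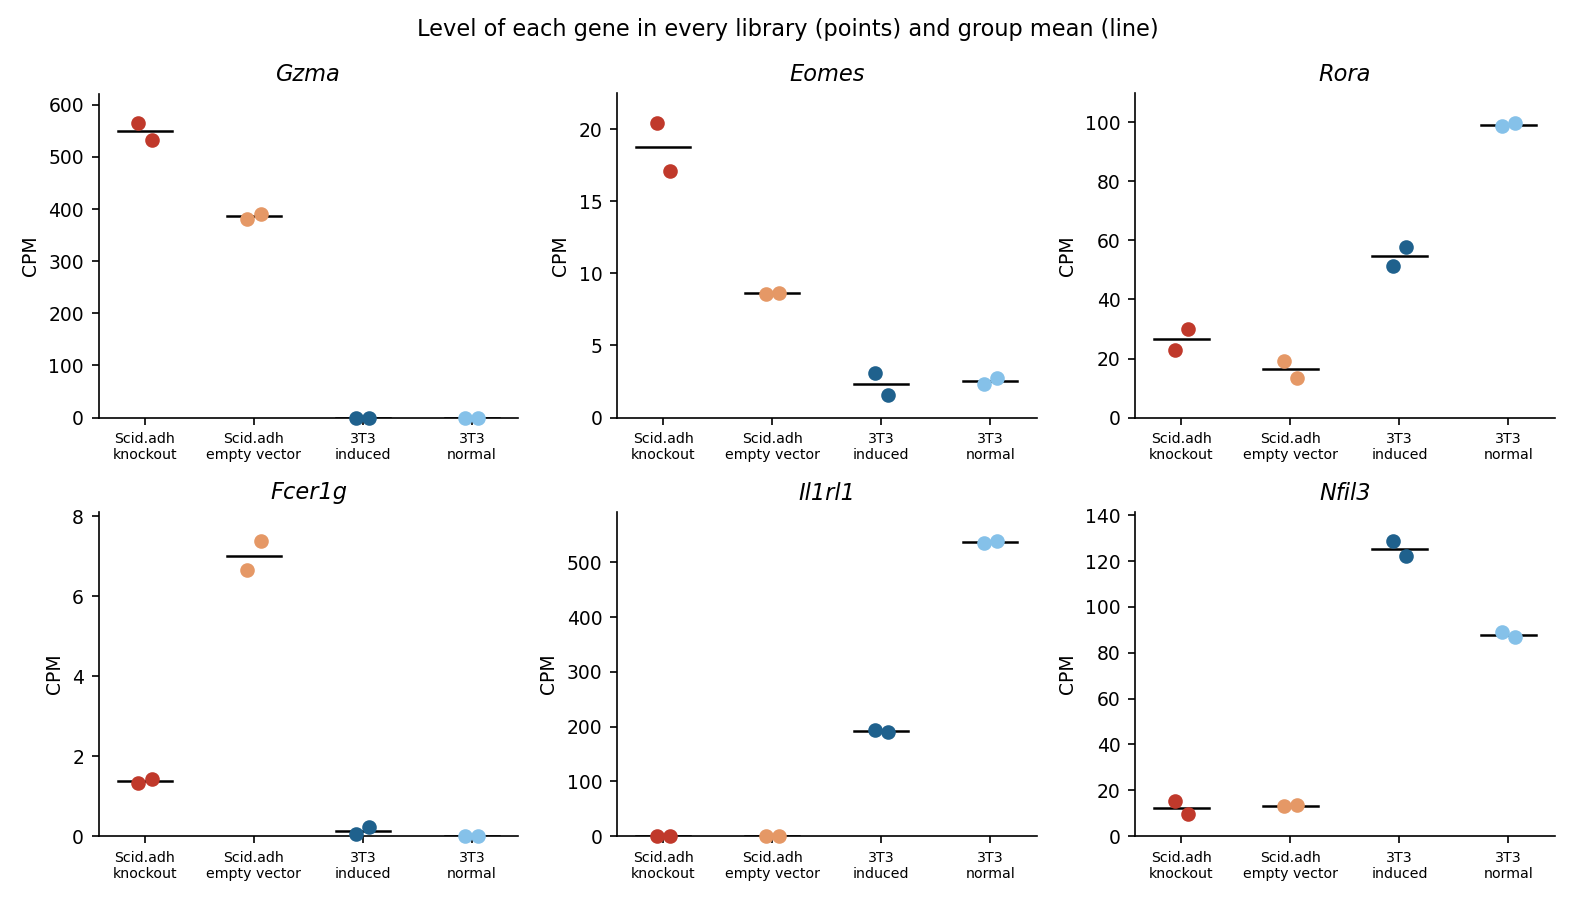
Level in CPM (vertical axis, linear and starting at 0) of each member in the 2 libraries of each group, with the group mean as a line. Gzma, Eomes and Rora lie higher and Fcer1g lower in knockout than in empty-vector Scid.adh cells, and Il1rl1 and Rora lie lower and Nfil3 higher in induced than in normal 3T3 cells.

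In all, 5 of the 6 members could be tested in Scid.adh, of which 3 were called higher and 1 lower in the knockout. Among the 11941 genes tested there, 15.6% were called higher and 15.9% lower. In 3T3, 4 members could be tested, of which 1 was called higher and 2 lower on induction, beside 18.5% and 18.3% of 18185 tested genes. The members were chosen for their role in innate lymphoid cells, with earlier results of these data known, and they are too few for a share to be read against those of all genes.

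**Figure D2:**
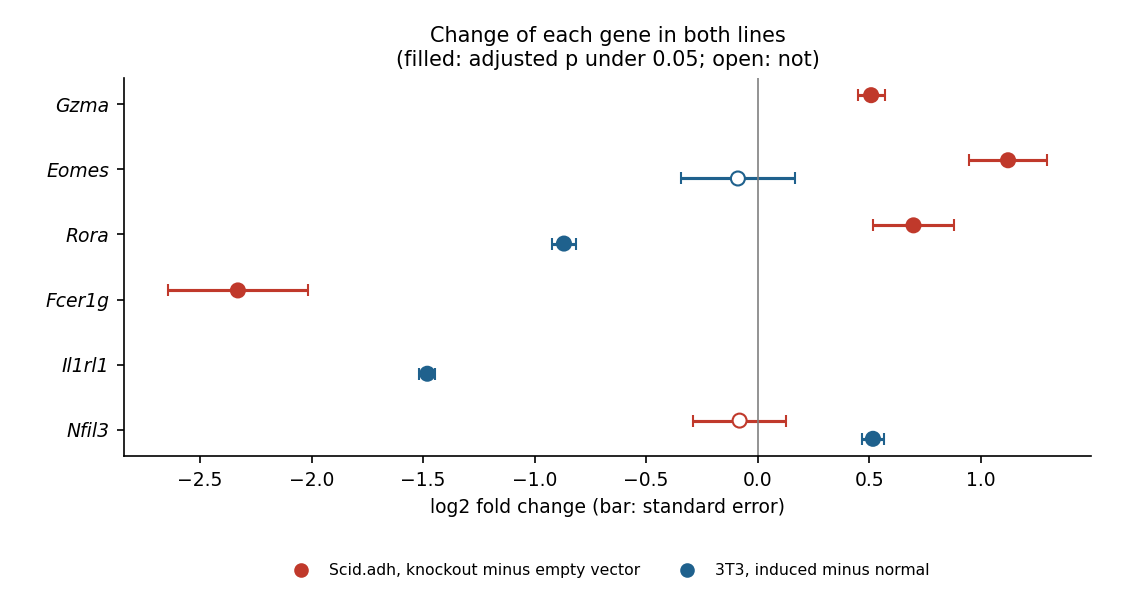
Log2 fold change of each tested member, knockout minus empty vector in Scid.adh (red) and induced minus normal in 3T3 (blue), with bars of 1 standard error and filled points for an adjusted p under 0.05. Rora is the 1 member called in both lines, at 0.70 in Scid.adh and -0.87 in 3T3.

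The calls in Scid.adh depended on the level of the gene. The filter keeps a gene with enough counts in as many libraries as a group has. In either line, a low gene can thus enter the test through its higher group alone. Of 3907 tested genes with a mean under 10 CPM, 28.3% were called higher and 5.48% lower in the knockout, and Fcer1g (mean 4.20 CPM) fell against that lean. Of 5422 genes from 10 to under 100 CPM, where Eomes (13.7), Nfil3 (12.8) and Rora (21.4) lie, 10.4% were higher and 15.1% lower. Of 2612 genes at 100 CPM or more, where Gzma (468 CPM) lies, 7.43% were higher and 33.1% lower. More genes were above 0 in knockout libraries (20406 and 20463) than in empty-vector libraries (18084 and 18041), at a smaller depth. The balance of calls also moved with the scaling, from 49.5% higher (1861 higher and 1899 lower) with TMM to 66.9% with upper-quartile factors (2455 and 1215) and 76.3% with total counts alone (2957 and 917), the last of which shifted the median of all genes by 0.13 on the log2 scale. The 4 members called in Scid.adh were called in the same direction under each of these scalings, whereas the uncalled estimate for Nfil3 turned to 0.05 with total counts alone.

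**Figure D3:**
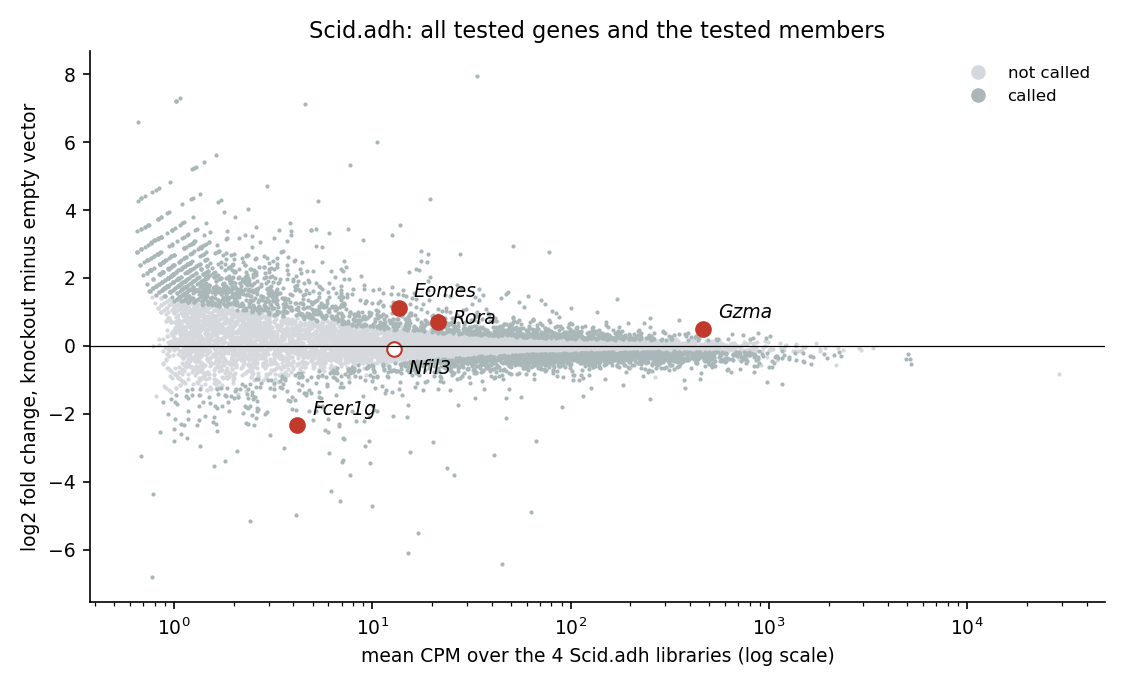
Log2 fold change, knockout minus empty vector, against mean CPM (log axis) of the 11941 genes tested in Scid.adh, called genes in darker grey and the 5 tested members in red (Nfil3, open, was not called). Rises are common at the low end, where Fcer1g lies below 0, and falls at the high end, where Gzma lies above 0.

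Per kilobase of exon, the scale on which levels of different genes can be set side by side, Gzma stood at 546 CPM per kb in knockout and 384 CPM per kb in empty-vector cells. Every other member was below 10 CPM per kb in Scid.adh. In knockout cells Nfil3 followed at 6.15 and Eomes at 4.51 CPM per kb, with Rora at 2.03 and Fcer1g at 1.58. In empty-vector cells the order differed, with Fcer1g at 8.02, Nfil3 at 6.50, Eomes at 2.07 and Rora at 1.25 CPM per kb. Il1rl1 was last in both, at 0.0789 CPM per kb in knockout and 0.0224 CPM per kb in empty-vector cells. In 3T3 the leading members were Nfil3 (61.9 CPM per kb induced, 43.4 normal) and Il1rl1 (27.9 induced, 77.8 normal), then Rora (4.18 induced, 7.59 normal) and Eomes (0.559 induced, 0.610 normal).

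TCF-1 was lost in Scid.adh and gained in 3T3, where it cannot be told apart from doxycycline. The difference between the 2 log2 fold changes was tested in a joint fit for the 3 members expressed in both lines, a fit in which 30.7% of 15854 genes were called. For Rora it was 1.56 (SE 0.17, adjusted p = 1.06e-07 by edgeR), with a rise in knockout Scid.adh cells and a fall in induced 3T3 cells. For Eomes it was 1.21 (SE 0.32, adjusted p = 0.00445 by edgeR), and without induced replicate 2 it was 0.84 and no longer called (adjusted p = 0.0622). For Nfil3 it was -0.60 (SE 0.17, adjusted p = 0.00717 by edgeR), and without knockout replicate 2 it was -0.33 and no longer called (adjusted p = 0.142). A called difference does not need changes in opposite directions, since Eomes was not called in 3T3 nor Nfil3 in Scid.adh. Gzma and Fcer1g in 3T3, and Il1rl1 in Scid.adh, were too low for such a test. The cause of these differences was not tested.

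Markers of other cell types gave a mixed picture in Scid.adh. Of all genes tested there, 15.6% were called higher and 15.9% lower. Among those under 10 CPM, where Gata2, Itgam, Pdgfra, Col1a1 and Col1a2 lie, 28.3% were higher and 5.48% lower. Of these, Gata2, Pdgfra, Col1a1 and Col1a2 could have entered the test through the knockout libraries alone. The 10 NK markers summed to 25.9 to 26.9 CPM in knockout and 26.3 to 26.7 CPM in empty-vector cells, with 0 of the 2 tested genes called by edgeR, DESeq2 or limma-voom (0 at an unadjusted p under 0.05), and Ncr1 and Klrd1 at 0 in all 4 libraries. Tbx21, the T-box factor T-bet and the most abundant of them, was at 19.7 ± 1.19 CPM in knockout and 21.3 ± 0.96 CPM in empty-vector cells (SD, n = 2 each), with no detectable difference. Mast cell and basophil markers, a group relevant to Fcer1g since FcRγ is a subunit of the IgE receptor, summed to 228 to 278 CPM in knockout and 92.2 to 100.2 CPM in empty-vector cells. Most of this was Cpa3, a mast cell protease also found in early progenitors, at 271 and 225 CPM in knockout against 99.2 and 91.2 CPM in empty-vector libraries (log2 fold change 1.38, adjusted p = 3.72e-07 by edgeR). The other tested gene of that list, Gata2, rose as well (1.97, and 0.90 without knockout replicate 1, when it was no longer called), although Fcer1a and Mcpt8 were at 0. Myeloid markers summed to 31.7 to 33.1 CPM in knockout and 16.6 to 21.3 CPM in empty-vector cells, with Cebpa (1.14) and Itgam (0.85) called higher of 4 tested, the call of Itgam being lost with DESeq2 (adjusted p = 0.0912) or without empty-vector replicate 2. Itgam shares 3450 exon bases with Gm49368 on the same strand, so its count is uncertain. Of the 5 fibroblast markers tested in Scid.adh, Pdgfra, Col1a1 and Col1a2 were called higher at means under 3 CPM, and Pdgfrb (-4.90) and Thy1 (-0.59) were lower. DESeq2 called none of those 3 rises, and leaving out empty-vector replicate 1 (Pdgfra) or replicate 2 (the others) also ended them. The 7 B cell markers summed to 0.949 to 1.34 CPM in knockout and 0.747 to 1.01 CPM in empty-vector cells, and none could be tested. The part of these markers in the changes of the members was not tested.

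Among other innate lymphoid transcription factors, Runx3, Klf2 and Zeb2 were called higher in the knockout line. Of 15 such factors, 10 could be tested in Scid.adh, and 3 were called higher and 0 lower (0 lower at an unadjusted p under 0.05 or by DESeq2 or limma-voom; median log2 fold change 0.08, against 0.00 over all genes), beside 15.6% higher and 15.9% lower of all tested genes. Runx3, which sustains cytotoxic programmes with EOMES, stood at 5.84 and 8.54 CPM in knockout against 1.71 and 1.28 CPM in empty-vector libraries (2.25, adjusted p = 0.000393 by edgeR). Klf2, a regulator of lymphocyte trafficking, stood at 2.43 and 2.14 CPM in knockout against 0.504 and 0.534 CPM in empty-vector libraries (2.11). Zeb2, which acts with T-bet in late NK cells, stood at 2.80 and 4.63 CPM in knockout against 0.806 and 1.07 CPM in empty-vector libraries (1.98). Zeb2 shares 653 bases with the opposite-strand Zeb2os, at 0.359 CPM in knockout and 0.151 CPM in empty-vector cells. All 3 were below 10 CPM, the range where rises were common. At such levels, Klf2 and Zeb2 could have entered the test through the knockout libraries alone. DESeq2 did not call Klf2 (adjusted p = 0.0541). With upper-quartile factors 5 of these factors were called higher, and with total counts alone 6. In 3T3, 2 of 12 were called higher and 3 lower (median 0.33, against 0.00 over all genes), beside 18.5% and 18.3% of all tested 3T3 genes, with Zeb2 higher (0.61) and Klf2 (-0.95), Ets1 (-0.15) and Id2 (-1.16) lower. In 3T3 the opposite-strand Zeb2os was also higher (1.21), at 9.41 CPM in induced and 4.09 CPM in normal cells. Zeb2 itself averaged 351.5 and 230.7 CPM, and without the strand setting its count is uncertain. Ets1, which helps NK cells develop, was not called by DESeq2 or without induced replicate 1 or normal replicate 2 (-0.23 to -0.07 over all alternatives). Id2, the antagonist of E proteins that is required for all innate lymphoid cells, was at 25.4 ± 1.92 CPM in induced and 56.6 ± 1.51 CPM in normal 3T3 cells (SD, n = 2 each).

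Most NK receptor and adaptor genes were too low to test in either line. Of 18 NK receptors and adaptors, 3 could be tested in Scid.adh and 4 were at 0 in every library. Of the 3 tested, 1 was called higher and 0 lower, beside 15.6% and 15.9% of all tested genes. The 1 called, Zap70, a kinase of the T cell receptor that also serves NK adaptors, stood at 54.5 and 54.9 CPM in knockout against 43.7 and 41.5 CPM in empty-vector libraries (0.36, adjusted p = 0.0125 by edgeR; list median -0.03). It was not called by DESeq2 (adjusted p = 0.0620) or without either empty-vector library (0.30 to 0.49 over all alternatives). In 3T3, 18.5% of all tested genes were called higher and 18.3% lower. Of this list, 7 genes were at 0 in every 3T3 library. Of its 4 tested genes, 0 were called by edgeR, DESeq2 or limma-voom, or at an unadjusted p under 0.05 (median -0.07). Cd247, the zeta chain of the T cell receptor and the most abundant of them, was at 9.51 ± 0.62 CPM in induced and 10.2 ± 0.15 CPM in normal 3T3 cells (SD, n = 2 each). Its exons overlap those of Pou2f1 on the opposite strand over 3007 bases, so without the strand setting its reads and those of Pou2f1 (37.7 CPM in induced and 45.5 CPM in normal cells) cannot be told apart. Of 16 cytokine receptor genes, 7 could be tested in Scid.adh, of which 1 was called higher and 1 lower (median -0.07), beside 15.6% and 15.9% of all tested genes. Il12rb2, a subunit of the interleukin 12 receptor, fell to 53.1 and 60.3 CPM in knockout libraries, against 94.2 and 93.0 CPM in empty-vector libraries (-0.72, adjusted p = 8.93e-05 by edgeR). This value is uncertain for the same reason, since the exons of Il12rb2 share 1519 bases with the opposite strand of Serbp1, which averaged 1939 CPM in knockout and 2341 CPM in empty-vector cells (-0.27). Crlf2, a subunit of the TSLP receptor, rose (0.92), at 5.82 ± 0.32 CPM in knockout and 3.07 ± 0.49 CPM in empty-vector cells (SD, n = 2 each), a call lost with DESeq2 or without empty-vector replicate 1 (0.76 to 1.08 over all alternatives).

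In 3T3, 4 of 10 tested cytokine receptor genes were called higher and 4 lower on induction (median 0.18), beside 18.5% higher and 18.3% lower of all tested genes. Il1rap, the co-receptor that ST2 needs to signal, rose to 174 and 189 CPM in induced libraries, against 87.4 and 85.9 CPM in normal libraries (1.06, adjusted p = 2.69e-23 by edgeR), while Il1rl1 itself fell. Il1rap shares 552 bases with the opposite-strand Gm20319, whose counts moved alike (1.14). Il2rb (2.39) and Il4ra (0.76) were also higher, and Il18rap (-1.23), Il17rb (-0.85) and Il12rb1 (-0.83), all under 5 CPM, were lower. Il2rb, at 2.06 CPM in induced and 0.394 CPM in normal cells, could have entered the test through the induced libraries alone. The falls of Il17rb and Il12rb1 were not called by DESeq2. Il17rb also lost its call without any 1 library, and Il12rb1 without induced replicate 2 or normal replicate 2 (-1.13 to -0.62 over all alternatives).

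Gzma stood alone among the granzymes in Scid.adh. Of 18 granzyme and granule genes, 7 could be tested in Scid.adh, and Gzmc to Gzmg were at 0 in all 4 libraries. Gzmm, at 1.95 and 2.49 CPM in knockout and 2.32 and 2.24 CPM in empty-vector libraries, was the 1 other granzyme that could be tested, with overlapping groups (-0.04); it was named after its values were seen. Rab27a, a GTPase of granule docking, rose to 48.9 and 48.1 CPM in knockout libraries, against 35.5 and 29.8 CPM in empty-vector libraries (0.57, adjusted p = 0.00244 by edgeR). Ctsw, a cathepsin of cytotoxic cells, was higher at 2.58 ± 0.72 CPM in knockout and 0.943 ± 0.479 CPM in empty-vector cells (1.45), a call lost with DESeq2 and without knockout replicate 2 or empty-vector replicate 1 (0.99 to 2.06 over all alternatives). Srgn, the proteoglycan that packs granzymes in the granule, fell to 7.05 and 6.76 CPM in knockout libraries, against 15.0 and 16.1 CPM in empty-vector libraries (-1.17, adjusted p = 0.000614 by edgeR). The median of the 7 was 0.11, with 2 called higher and 1 lower, beside 15.6% and 15.9% of all tested genes. In 3T3, 0 of 6 were higher, also at an unadjusted p under 0.05 and by DESeq2 or limma-voom, and 2 were lower (median -0.09). Of all tested 3T3 genes, 18.5% were higher and 18.3% lower. The 2 were the granzyme B inhibitor Serpinb9 (-0.62) and Lamp1 (-0.22). Lamp1 lies at 100 CPM or more, where 38.1% of tested 3T3 genes were lower.

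Cytokine genes were as scarce. Of 18, 3 could be tested in Scid.adh (median -0.02), and 1 was called higher and 1 lower, beside 15.6% and 15.9% of all tested genes. Il4 was higher at 1.70 and 1.78 CPM in knockout against 0.806 and 0.214 CPM in empty-vector libraries (1.72, adjusted p = 0.0267 by edgeR). The call of Il4, a cytokine of type 2 responses, was lost with DESeq2 and without knockout replicate 2 or empty-vector replicate 2 (1.09 to 2.94 over all alternatives). Tnf, an inflammatory cytokine, was lower at 0.365 and 0.831 CPM in knockout against 2.62 and 2.56 CPM in empty-vector libraries (-2.09, adjusted p = 0.00491 by edgeR). At such levels each could have entered the test through its higher group alone, knockout for Il4 and empty vector for Tnf. In 3T3, 2 could be tested (median -0.42), with 0 called higher and 1 lower, beside 18.5% and 18.3% of all tested 3T3 genes. The chemokine gene Ccl5 was lower (-0.62), a call lost with DESeq2 and without induced replicate 1 (-0.41).

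Rora and Nfil3 both have a place in the circadian clock, where RORα activates and NFIL3 represses clock-controlled genes. Of 16 clock and related genes, 12 could be tested in Scid.adh, with 1 higher and 2 lower (median 0.04), beside 15.6% and 15.9% of all tested genes. Dbp, which competes with NFIL3 for the same DNA sites, was higher (0.87), and Nr1d1 (-1.38) and Per2 (-0.67), both repressors, were lower in the knockout. DESeq2 called Nr1d1 alone of these. Nr1d1 shares 263 exon bases with the opposite-strand Thra, at 25.9 CPM in knockout and 28.4 CPM in empty-vector cells. Without the strand setting, the count of Nr1d1 is uncertain. Dbp lost its call without knockout replicate 1 or empty-vector replicate 2 (0.59 to 1.11 over all alternatives), and Per2 without knockout replicate 2 or empty-vector replicate 1 and with every other scaling but DESeq2 size factors (-0.91 to -0.40). In induced 3T3, 10 of 14 tested clock genes were called lower and 1 higher (median -0.46). Of all 3T3 genes tested, 18.3% were called lower and 18.5% higher. Among 3T3 genes at 100 CPM or more, where some of this list lie, 38.1% were called lower, and from 10 to under 100 CPM 21.5%. Bhlhe40, a repressor of the clock, fell to 187 and 184 CPM in induced libraries, against 464 and 449 CPM in normal libraries (-1.30, adjusted p = 1.12e-30 by edgeR). Dbp (-1.08) and Bhlhe41 (-0.90) were also lower, and Arntl, the gene of BMAL1, was slightly higher (0.20), though not by DESeq2 or without either normal library (0.18 to 0.23 over all alternatives). Bhlhe41 shares 1280 bases with the opposite-strand Gm43909, which was lower as well (-1.02), and Dbp 539 bases with Sphk2 (-0.28 in 3T3). Bhlhe40 shares 118 bases with the opposite-strand 0610040F04Rik, also lower (-1.315). Without the strand setting, the counts of these overlapping genes are uncertain. The labels give no circadian time of harvest. The part of Rora and Nfil3 in the changes of the clock genes was not tested.

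**Figure D4:**
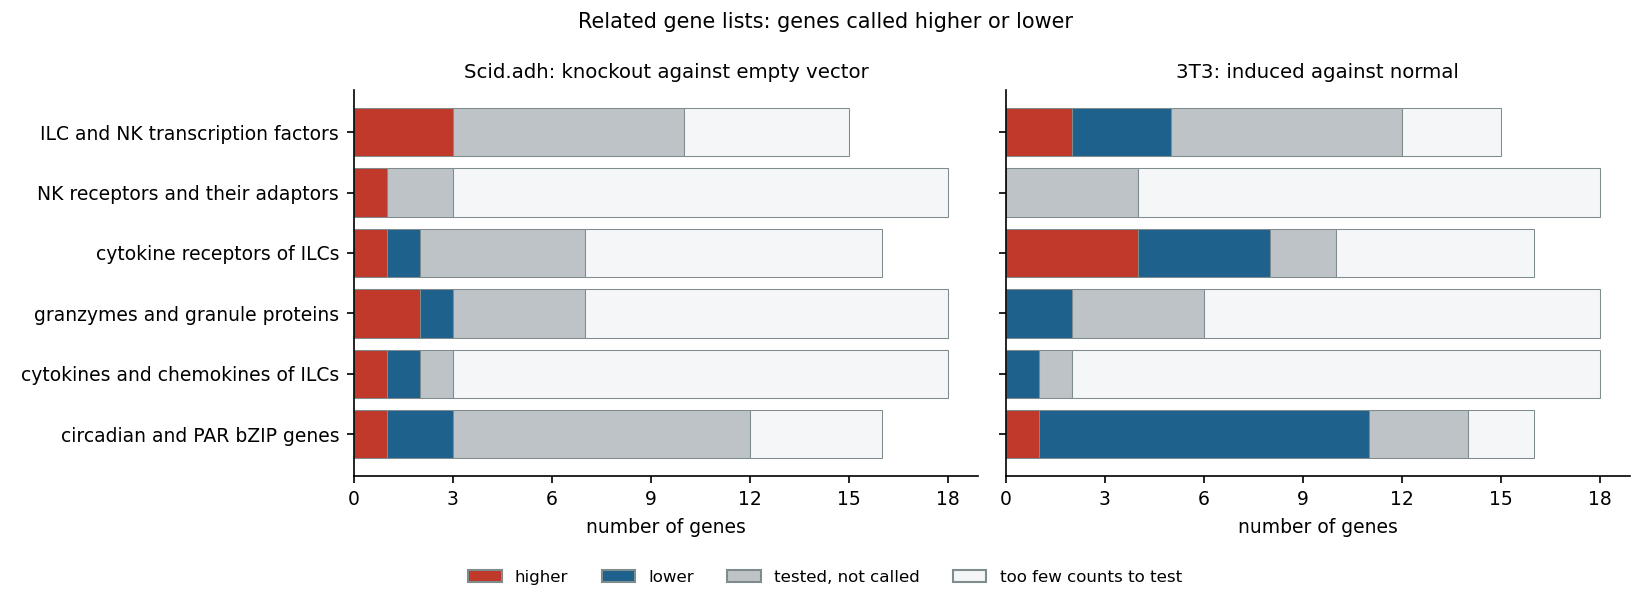
Number of genes (horizontal axis, from 0) of each related list (ILC, innate lymphoid cell) called higher (red), called lower (blue), tested and not called (grey) or too low to test (pale), in Scid.adh on the left and 3T3 on the right. In 3T3, 10 of the 14 tested clock genes were lower on induction, and most NK receptor, granule and cytokine genes were too low to test in either line.

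The nearest tested genes on either side of the members were compared in each line. In Scid.adh, neither neighbour of Gzma, Rora or Nfil3 was called by edgeR. Esm1, beside Gzma, had a log2 fold change of 0.22 (adjusted p = 0.0685). Golga4, 20.1 kb beyond Eomes, was slightly higher (0.19, adjusted p = 0.0333 by edgeR), and Slc9a2, 215 kb beyond Il1rl1, was higher at under 3 CPM (1.65). Neither was called by DESeq2 or without either empty-vector library, nor Slc9a2 without knockout replicate 1 (0.14 to 0.33 for Golga4 and 1.38 to 1.94 for Slc9a2 over all alternatives). Slc9a2 could have entered the test through the knockout libraries alone. Of all genes tested in Scid.adh, 15.6% were called higher and 15.9% lower. In 3T3, Golga4 (-0.40) was lower 20.1 kb from Eomes, Vps13c (-0.30) 658 kb from Rora and Il18rap 49.95 kb from Il1rl1. Ror2 (0.61) was higher 128 kb from Nfil3, and Snx18 (0.38) 491 kb from Gzma. Tomm40l (0.43) was higher 7.06 kb from Fcer1g, but not called by DESeq2 or without normal replicate 1 (0.27). Of all tested 3T3 genes, 18.5% were called higher and 18.3% lower.

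Genes most like each member over the 8 libraries were ranked by Euclidean distance between log2 CPM values centred on each gene's mean, a measure ruled by the difference between lines. For Gzma they were mt-Nd4 (0.95), Ptprc (1.10) and mt-Nd6 (1.10), the mitochondrial genes being listed at 0 in 3T3. For Eomes they were Gm34376 (0.55), Kcnc4 (0.60) and Eci3 (0.62), and for Rora Borcs6 (0.45), Adam32 (0.50) and Gas2 (0.51). For Fcer1g they were Prox1 (0.90), Abcg1 (1.16) and Ighm (1.495). Prox1, a homeobox factor, averaged 2.94 CPM in knockout and 13.7 CPM in empty-vector cells, a fall (-2.21) close in size to that of Fcer1g. Il1rl1 was nearest to F2r (0.64), Plod2 (0.72) and Cped1 (0.91), of which the collagen-modifying enzyme Plod2 averaged 90.2 CPM in induced and 246 CPM in normal 3T3. Nfil3 was nearest to Plpp1 (0.45), Mterf4 (0.48) and Gm15557 (0.51).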

How the data were processed

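RNA-seq of 8 libraries was analysed. Per the labels' protocols, total RNA went into stranded total RNA libraries (SMARTer Pico, version 2) read in pairs. The authors deposited gene counts, 1 table a library. Per the submitters' processing notes, STAR 2.5.0a, HTSeq 0.6.1 and the GRCm38 (mm10) genome were used. Not given in the sources used here are the counting program for 3T3 and, for all libraries, the gene annotation and the strand setting. Replicate libraries were kept apart, since none of the 4 pairs agreed within sampling noise.

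Rows of unassigned reads, in the Scid.adh files only (21.3% to 25.8% outside genes, 2.20% to 2.44% ambiguous), were left out. Each line's whole table was filtered with filterByExpr, scaled by TMM and tested with edgeR 4.0.16 in R 4.3.3 (robust quasi-likelihood, Benjamini-Hochberg). The difference between lines came from a joint fit. The biological coefficient of variation was 5.94% in Scid.adh, 2.41% in 3T3 and 4.12% in the joint fit. The code was tested on simulated data. Alternatives were DESeq2 1.42.0, limma-voom (limma 3.58.1), other scalings, filters, a test against 1.5-fold, a replicate block and leaving out each library. Counting intervals are exact, at 95%.

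Named genes were the members, Tcf7, up to 3 called genes per list and direction with the largest change and a mean of at least 1 CPM (with none called, the most abundant), each marker list's most abundant gene and those called in Scid.adh, of which the DN3 genes are given by count, the nearest tested gene on each side (not all are reported here), and the 3 most alike over 8 libraries. The members and lists were chosen with earlier results of these data known.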

Additional observations from a re-analysis of the deposited data

Results flagged for a closer look

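The response of 3 members differed between the lines by a test of the difference itself, in log2 units as knockout minus empty vector in Scid.adh less induced minus normal in 3T3. The values were 1.56 for Rora, 1.21 for Eomes and -0.60 for Nfil3. Rora was called in both lines, in opposite directions, Eomes in Scid.adh alone and Nfil3 in 3T3 alone. No group has enough libraries for a test of a library that stands apart.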

How the results depend on the processing

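Eomes and Fcer1g in Scid.adh, Rora and Il1rl1 in 3T3 and the difference between lines of Rora kept their direction and call under every alternative run (15 for each value in a line, 17 for each difference). Eomes in Scid.adh ranged from 0.98 to 1.26, Fcer1g from -2.41 to -2.20, Rora in 3T3 from -0.95 to -0.78, Il1rl1 from -1.502 to -1.46 and the difference of Rora from 1.30 to 1.81. In the test against 1.5-fold, Gzma (0.51) and Rora (0.70) in Scid.adh and Nfil3 in 3T3 (0.52) were not called, which leaves 2 of 4 called members in Scid.adh. Without 1 library each, Nfil3 in Scid.adh ranged from -0.45 to 0.21 and Eomes in 3T3 from -0.68 to 0.27, neither of them called, and Nfil3 in Scid.adh was 0.055 with total counts alone, a scaling added after the data had been seen, as was TMM from genes of at least 10 CPM.

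Called genes in Scid.adh numbered 3760, with DESeq2 1960, in the test against 1.5-fold 724, and 2221 to 4210 without 1 library each (2221 without empty-vector replicate 1 and 2378 without replicate 2). In 3T3 they numbered 6693, with DESeq2 4012 and in the test against 1.5-fold 917. The causes were not tested. The group left with 1 library is assumed to vary like the other. In Scid.adh the pairs differed in spread. The chi-square per degree of freedom against counting noise was 6.08 between knockout libraries and 1.89 between empty-vector libraries. The part of this spread in the number of calls was not tested. In the joint fit 52.4% of the called differences were positive, and 68.5% with total counts alone, where its median moved to 0.18. TMM from genes of at least 10 CPM gave 63.7% of calls higher in Scid.adh, in place of 49.5%.

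Same-numbered libraries did not deviate together over all tested genes (correlation 0.0015 in Scid.adh and 0.0124 in 3T3). This cannot decide whether they were paired, since such a correlation can miss a pairing that moved few genes. With a replicate block, 4038 genes in Scid.adh, 7210 in 3T3 and 4785 differences were called, against 3760, 6693 and 4867 without it. The number of members called was the same as without it. Depth limits Il1rl1 in Scid.adh and Gzma and Fcer1g in 3T3, where 3 counts amount to 0.0890 to 0.188 CPM.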
